A study of Mus musculus with 19 samples.

Results

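A set of 10 genes subject to genomic imprinting were followed across 4 genotypes of mouse embryonic stem (ES) cells, the pluripotent cells derived from the early embryo. They were taken by symbol from a table of 21685 genes, and were Peg10, Sgce, Mest, Peg3, Plagl1, Snrpn, Impact and Nnat, known as paternally expressed, and Grb10 and Igf2r, known as maternally expressed. The genes were chosen by their imprinted status with their genotype differences in these same libraries already known, so every difference given for them is a description. They are sorted below by the same adjusted p threshold as all genes, and that sorting is no independent test of these 10. All 10 passed the filter on low values (a level of 10 or more, before the log2, in 4 or more libraries), as did 14988 of all genes.

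The cells were male C57BL/6 ES cells grown in medium with fetal calf serum and leukaemia inhibitory factor, and enriched for the surface antigen SSEA-1 with magnetic beads before harvest. Genotype names give the Trim71 state first and the Lin28a state second. WT-WT cells carried floxed, intact alleles of both genes (labelled Trimfl/fl and Lin28afl/fl, 4 libraries). KO-WT cells were Trim-/- with Lin28afl/fl (4 libraries used of 5), WT-KO cells were Trimfl/fl with Lin28a-/- (5 libraries), and KO-KO cells were Trim-/- with Lin28a-/- (5 libraries). The Trim71 deletion was induced with 500 nM 4-hydroxytamoxifen for 2 days, and the cells were then kept in culture for at least 7 days. Trim71 loss therefore cannot be told apart from past exposure to the drug. The Lin28a-intact libraries came from clones named 1 and E3 and the Lin28a-null libraries from clones named 1-4 and C1, so Lin28a state and clone cannot be told apart. Libraries were labelled with days 1 to 6, and the 1 library of day 6, from KO-WT cells, was left out.

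In imprinting, the copy of a gene inherited from the mother or from the father carries DNA methylation at a control region, laid down in the egg or the sperm, and 1 of the copies is silenced. The marks are held through the early embryo by ZFP57, a zinc finger protein that binds its methylated recognition hexamer, with its partner TRIM28 and the methyltransferase DNMT1. Cultured ES cells are known for unstable imprints. LIN28A is an RNA-binding protein of early embryonic cells that blocks maturation of the let-7 microRNAs, and TRIM71 is a stem cell protein that represses mRNAs and is itself a let-7 target. The RNA measured here was not split by parental allele, so the terms paternally and maternally expressed are background. In undifferentiated ES cells Igf2r is known to be read from both copies.

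The let-7 family shares 1 seed, held by 9 of the 10 mouse let-7 guide sequences in RefSeq, and the seed is the stretch by which let-7 finds its mRNA targets. In let-7a the seed, bases 2 to 8, is in capitals.
mmu-let-7a-5p: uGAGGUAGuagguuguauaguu
The complementary letters CTACCTC were searched on the mRNA strand in 1 annotated 3′ UTR per gene (GENCODE M21). They were present in 1351 of the 12535 tested genes with a 3′ UTR, or 10.8%. Among the 10 genes they were present once in Peg3, 616 bases into the UTR, and once in Igf2r, at base 667. The 2 matches are shown with the bases before them, and the site is in capitals.
Peg3 site: ggagtgttctgtcccCTACCTCt
Igf2r site: cacctgctccgtgccCTACCTCa
The other 8 UTRs did not hold these letters. The sequences are descriptions, and no binding was measured here.

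The start regions of 7 of the 10 genes were in the RefSeq promoter table (build GRCm38.p6), as windows of 300 bases that span a start and lie mostly upstream of it. The ZFP57 hexamer, TGCCGC or GCGGCA on the other strand, was found in 3809 of 32817 such windows, or 11.6%. It was present in a window of 5 of the 7 genes, namely Grb10, Mest, Snrpn, Nnat and Plagl1, and absent from those of Peg3 and Igf2r. This count is by gene over all its windows, and Grb10, Mest and Snrpn had more than 1 window each. The 11.6% is by single window, so the 2 shares cannot be compared. The share among windows of like CpG content was not counted. The core letters of the YY1 site, AAGATGG or CCATCTT on the other strand, were in 6.34% of windows and in none of those of the 7 genes. The windows below belong to 4 genes whose RNA differed between genotypes, 2 of them higher and 1 lower without Lin28a and 1 higher without Trim71. The hexamer is in capitals, and each sequence runs 5′ to 3′ along its gene's strand.
Grb10 (chr11:12037371-12037670, minus strand): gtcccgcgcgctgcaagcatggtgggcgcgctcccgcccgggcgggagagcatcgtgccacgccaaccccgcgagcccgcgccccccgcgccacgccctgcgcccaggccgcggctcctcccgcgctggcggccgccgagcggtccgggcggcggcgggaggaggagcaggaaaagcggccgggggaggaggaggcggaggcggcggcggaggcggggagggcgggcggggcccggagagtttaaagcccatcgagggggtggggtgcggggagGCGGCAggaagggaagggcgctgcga
Mest (chr6:30737800-30738099, plus strand): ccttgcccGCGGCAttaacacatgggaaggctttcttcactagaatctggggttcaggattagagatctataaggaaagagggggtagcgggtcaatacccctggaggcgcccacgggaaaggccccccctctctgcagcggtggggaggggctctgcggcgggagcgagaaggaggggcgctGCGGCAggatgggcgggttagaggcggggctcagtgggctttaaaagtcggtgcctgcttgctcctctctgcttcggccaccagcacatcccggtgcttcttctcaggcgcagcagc
Snrpn (chr7:60005150-60005449, minus strand): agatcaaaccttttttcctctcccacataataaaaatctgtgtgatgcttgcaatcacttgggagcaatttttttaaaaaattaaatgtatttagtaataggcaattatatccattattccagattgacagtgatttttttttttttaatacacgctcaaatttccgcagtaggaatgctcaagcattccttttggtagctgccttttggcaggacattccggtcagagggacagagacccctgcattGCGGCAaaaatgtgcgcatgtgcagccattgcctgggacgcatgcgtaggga
Nnat (chr2:157559828-157560127, plus strand): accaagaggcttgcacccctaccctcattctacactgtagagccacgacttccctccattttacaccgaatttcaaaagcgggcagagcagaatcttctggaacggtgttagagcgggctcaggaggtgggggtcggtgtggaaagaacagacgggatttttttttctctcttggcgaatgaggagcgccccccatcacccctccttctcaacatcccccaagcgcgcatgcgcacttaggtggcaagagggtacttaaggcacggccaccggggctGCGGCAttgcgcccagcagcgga
The Grb10 window held 45 CpG dinucleotides, more than 98.1% of all windows. The Mest and Nnat windows held 17 each and the Snrpn window 7, against a median of 7. No methylation was measured, and a match or its absence says nothing about ZFP57 binding in these cells. Grb10, Mest and Snrpn also had listed starts without the hexamer.

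Both targeted genes were lower where the labels said so, by deposited log2 value. Trim71 averaged 10.21 in WT-WT and 10.65 in WT-KO cells against 8.89 in KO-WT and 9.28 in KO-KO cells. Lin28a averaged 10.13 and 9.84 in WT-WT and KO-WT cells against 8.47 and 8.28 in WT-KO and KO-KO cells. The ES cell genes Pou5f1, Nanog, Sox2 and Zfp42 were present in all genotypes, while Fut4, whose enzyme makes the SSEA-1 sugar, lay below the filter. Summed on the linear scale, trophectoderm markers ran from 3470 to 4940 in Lin28a-intact libraries and from 281 to 452 in Lin28a-null libraries. With Lin28a intact most of each sum came from the keratins Krt8 and Krt18, so the fall of the sum was mostly theirs. They averaged 10.96 and 10.80 in WT-WT cells, where Hand1 averaged 6.64. Cdx2 and Elf5 were below the filter in all genotypes. Of the 8 listed trophectoderm markers 6 were tested, and 5 of these fell in each Lin28a comparison (limma). Eomes did not, with differences of 0.13 ± 0.0866 and −0.0014 ± 0.0866. Primitive endoderm markers summed to between 262 and 475 with Lin28a and between 80.6 and 130 without it. Fibroblast markers summed to between 137 and 235 and between 72.8 and 89.4, and neural markers to between 544 and 684 and between 668 and 890. Of 4 fibroblast markers tested, 3 fell in each Lin28a comparison (limma), and Thy1 did not (0.14 and 0.27). Acta2, the highest of them in WT-WT cells, averaged 6.45 there and 3.17 in WT-KO cells. The neural markers were mixed. Of 5 tested, 3 rose in each comparison and Neurod1 fell (−0.42 and −0.75). The part of these markers in the differences below was not tested, and in bulk RNA fewer cells of a type and less RNA per cell cannot be told apart.

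**Figure D1:**
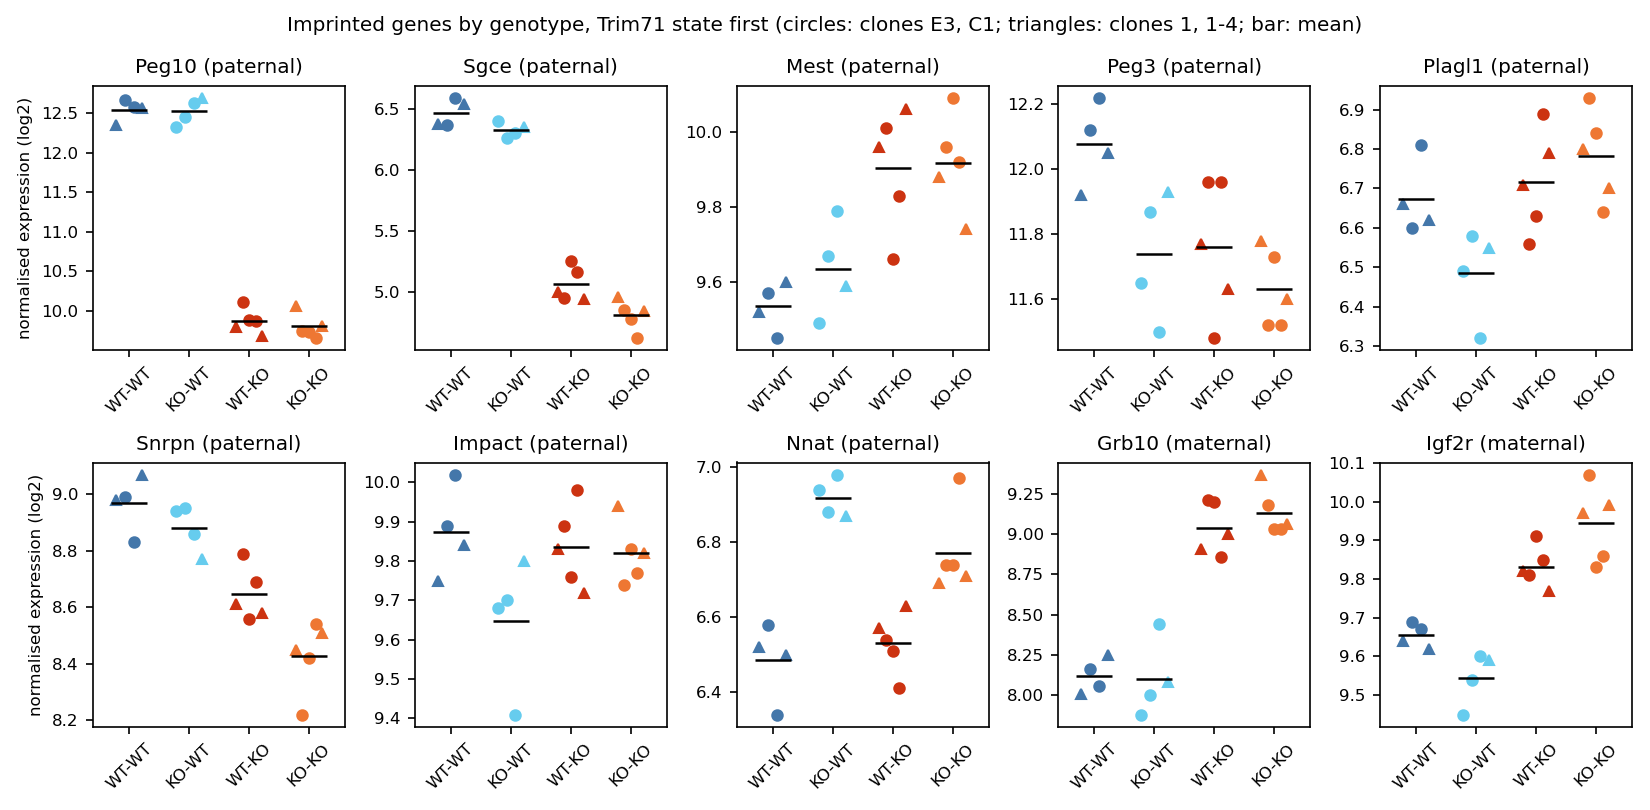
Deposited log2 expression of each of the 10 genes (vertical axis, with its own range in each panel) by genotype (horizontal axis). Each point is a library (circles for clones E3 and C1, triangles for clones 1 and 1-4) and the bar is the mean. Peg10, Sgce, Grb10 and Igf2r separated all 10 Lin28a-null from all 8 Lin28a-intact libraries.

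Loss of Lin28a was followed by large differences in a few of the 10 genes, and the largest were in a neighbouring pair. Peg10 and Sgce start from opposite sides of 1 imprinted promoter region and are read from the paternal copy. Peg10 is a gene derived from a retrotransposon that the mouse placenta needs, and Sgce encodes ε-sarcoglycan, a membrane protein. Both were lower without Lin28a, whichever the Trim71 state. A gene is said to be called where its adjusted p was under 0.05 in limma, with Benjamini-Hochberg adjustment over all 14988 genes. By that rule 7 of the 10 genes were called in each Lin28a comparison, against 42.4% of all genes tested between WT-KO and WT-WT cells and 42.8% between KO-KO and KO-WT cells. Nothing is read from these counts, because these contrasts were known when the genes were picked. The median absolute log2 difference was 0.319 and 0.347 for the 10 genes and 0.155 and 0.155 for all genes.

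Peg10 had log2 values of 12.35, 12.66, 12.58 and 12.56 in the WT-WT libraries and 9.80, 10.12, 9.89, 9.88 and 9.68 in the WT-KO libraries. In Trim71-null cells it had 12.33, 12.45, 12.63 and 12.69 with Lin28a and 10.07, 9.75, 9.74, 9.66 and 9.81 without it. Every Lin28a-null library lay more than 2 log2 units below every Lin28a-intact library. The difference was −2.66 ± 0.103 (SE), 6.34-fold lower, with Trim71 intact and −2.72 ± 0.103, 6.58-fold lower, in Trim71-null cells. By size Peg10 ranked 25th and 16th of 14988 genes. The interaction, the Lin28a difference in Trim71-null cells minus that with Trim71 intact, was −0.05 ± 0.146 for Peg10. Clones C1 and E3, compared on the same day, differed by a mean of −2.74 (2 pairs, Trim71 intact) and −2.75 (3 pairs, Trim71 null), and clones 1-4 and 1 by −2.71 (2 pairs) and −2.88 (1 pair).

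Sgce gave 6.38, 6.37, 6.59 and 6.54 in WT-WT cells and 5.00, 4.95, 5.25, 5.16 and 4.94 in WT-KO cells. In KO-WT cells it gave 6.40, 6.26, 6.30 and 6.35, and in KO-KO cells 4.96, 4.85, 4.78, 4.62 and 4.84. The groups did not overlap and the highest null library stayed about 1 log2 unit below the lowest intact one. Sgce was lower by 2.66-fold (−1.41 ± 0.0912) with Trim71 and by 2.86-fold (−1.52 ± 0.0912) without it. The Peg10 difference was the larger in both Trim71 states, although the genes share a promoter region. Among all genes 1.35% and 1.39% differed at least 2-fold in these comparisons.

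**Figure D2:**
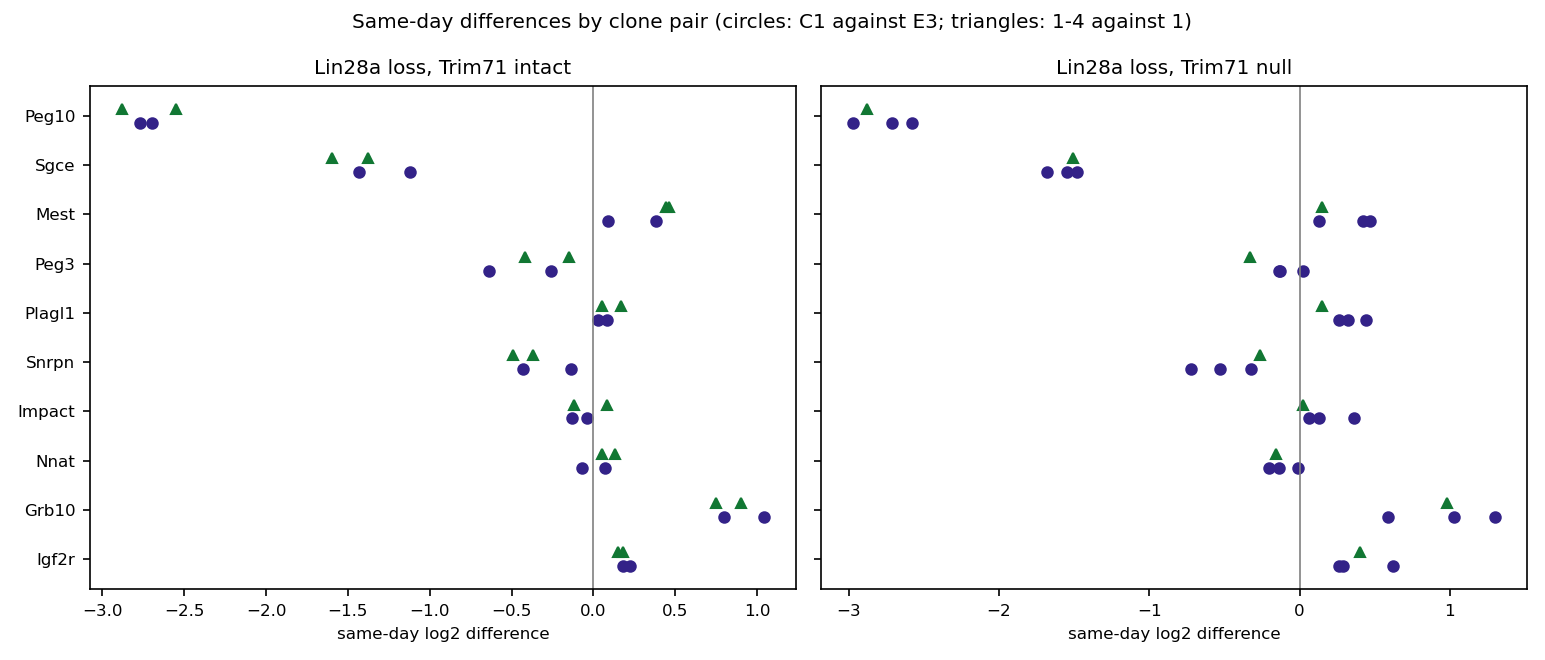
Log2 differences between a Lin28a-null and a Lin28a-intact library of the same day (horizontal axis) for each of the 10 genes (vertical axis), with Trim71 intact on the left and null on the right. Circles are clone C1 against E3 and triangles clone 1-4 against 1. All pairs lay below 0 for Peg10, Sgce and Snrpn and above 0 for Mest, Plagl1, Grb10 and Igf2r.

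The maternally expressed genes were both higher without Lin28a. Grb10 encodes an adaptor protein that dampens insulin and IGF receptor signalling and restrains growth. Its values were 8.01, 8.16, 8.06 and 8.25 in WT-WT cells and 8.91, 9.21, 9.20, 8.86 and 9.0 in WT-KO cells. They were 7.88, 8.0, 8.44 and 8.08 in KO-WT cells and 9.37, 9.18, 9.03, 9.03 and 9.06 in KO-KO cells. No Lin28a-null library reached down to an intact one. Grb10 was 1.89-fold higher (0.92 ± 0.114) with Trim71 intact and 2.05-fold higher (1.04 ± 0.114) in Trim71-null cells, and ranked 247th and 187th by size. The same-day means were 0.92 for C1 against E3 and 0.83 for 1-4 against 1 with Trim71 intact, and 0.98 for each clone set in Trim71-null cells.

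Igf2r encodes the receptor that takes IGF2 into the cell for breakdown, and thereby limits growth. It had 9.64, 9.69, 9.67 and 9.62 in WT-WT cells and 9.82, 9.81, 9.91, 9.85 and 9.77 in WT-KO cells. It had 9.45, 9.54, 9.60 and 9.59 in KO-WT cells and 9.97, 10.07, 9.83, 9.86 and 9.99 in KO-KO cells. The groups did not overlap, but the distance was small: 0.18 ± 0.0538 with Trim71 and 0.40 ± 0.0538 without it. The first of these was no longer called when WT-WT replicate 4 was left out (0.16). The interaction for Igf2r was 0.22 ± 0.0765 and was not called. None of the 10 genes had a called interaction, against 3 of all genes, or 0.02%. Without the day term Igf2r alone of the 10 was called, in a setting with 673 such calls among all genes. Airn, the paternally expressed RNA that runs antisense through Igf2r, lay below the filter with means of 2.70, 2.72, 1.98 and 1.93 in WT-WT, KO-WT, WT-KO and KO-KO cells, and since the library kit does not mark strand, reads where the 2 overlap cannot be assigned to either.

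Among the other paternally expressed genes, Mest, which encodes a hydrolase-like protein that promotes growth, was on the same side as the maternally expressed pair. It had 9.52, 9.57, 9.45 and 9.60 in WT-WT cells and 9.96, 10.01, 9.66, 9.83 and 10.06 in WT-KO cells. In KO-WT cells it had 9.49, 9.67, 9.79 and 9.59, and in KO-KO cells 9.88, 9.96, 10.09, 9.92 and 9.74. The first pair of groups did not overlap and the second did. The differences were 0.37 ± 0.087 and 0.28 ± 0.087, and the second lost its call without KO-WT replicate 1 (0.21) or without KO-KO replicate 3 (0.22). The first lost its call with clones E3 and C1 alone (0.32) and the second with clones 1 and 1-4 alone (0.23), and both did on the days with all 4 genotypes (0.31 and 0.23). Mest overlaps the end of Copg2 on the opposite strand, and Copg2 was also higher (0.15 ± 0.0444 and 0.23 ± 0.0444, adjusted p = 0.0108 and 0.000678 in limma).

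Snrpn encodes SmN, a core spliceosome protein, and lies in the Prader-Willi domain. Its values were 8.98, 8.99, 8.83 and 9.07 in WT-WT cells and 8.61, 8.79, 8.56, 8.69 and 8.58 in WT-KO cells. They were 8.94, 8.95, 8.86 and 8.77 in KO-WT cells and 8.45, 8.22, 8.42, 8.54 and 8.51 in KO-KO cells. Each Lin28a-null group lay wholly below its Lin28a-intact group, by −0.32 ± 0.0745 and −0.45 ± 0.0745. Snrpn has a close paralogue, Snrpb, and shares its transcript with Snurf, so the Snrpn level depends on how reads common to them were assigned. Snurf was not among the deposited genes by that symbol.

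Peg3, a zinc finger protein linked to growth and maternal care, had the Lin28a difference that rested most on single libraries. It had 11.92, 12.12, 12.22 and 12.05 in WT-WT cells and 11.77, 11.96, 11.48, 11.96 and 11.63 in WT-KO cells, which overlapped. In KO-WT cells it had 11.65, 11.87, 11.50 and 11.93 and in KO-KO cells 11.78, 11.52, 11.73, 11.52 and 11.60. The differences were −0.31 ± 0.112, which was called, and −0.11 ± 0.112, which was not. The −0.31 lost its call without any 1 of WT-KO replicates 1, 3 and 5 (−0.32, −0.21 and −0.27) or WT-WT replicates 2, 3 and 4 (−0.29, −0.25 and −0.33). With clones E3 and C1 alone it was not called either. Peg3 was 1 of the 2 genes with the let-7 site shown above, and the other, Igf2r, lay on the opposite side of 0. Any part of the site in these differences was not tested.

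Plagl1, a zinc finger transcription factor that acts on other imprinted genes, was called in Trim71-null cells and not with Trim71 intact. It had 6.66, 6.60, 6.81 and 6.62 in WT-WT, 6.71, 6.56, 6.63, 6.89 and 6.79 in WT-KO, 6.49, 6.58, 6.32 and 6.55 in KO-WT and 6.80, 6.93, 6.84, 6.64 and 6.70 in KO-KO cells. The KO-KO libraries lay just above the KO-WT libraries, while WT-KO and WT-WT overlapped. The differences were 0.29 ± 0.0883 in Trim71-null cells and 0.04 ± 0.0883 with Trim71 intact, and their own difference, the interaction, was 0.25 ± 0.126 and was not called. The 0.29 lost its call without KO-KO replicate 2 (0.23) or KO-WT replicate 3 (0.22). It also lost it with clones E3 and C1 alone, with clones 1 and 1-4 alone and on the days with all 4 genotypes.

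Impact, an inhibitor of the amino acid sensing kinase GCN2, and Nnat, a small protein of the endoplasmic reticulum, were not called in either Lin28a comparison. Impact ranged from 9.75 to 10.02 in WT-WT, from 9.72 to 9.98 in WT-KO, from 9.41 to 9.80 in KO-WT and from 9.74 to 9.94 in KO-KO cells, with differences of −0.04 and 0.17, each ± 0.0805. The second was called when KO-WT replicate 4 was left out (0.24). For Nnat the Lin28a differences were 0.05 and −0.15, each ± 0.0765, and the second was called without KO-KO replicate 4 (−0.22). All groups overlapped for both genes in these comparisons.

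**Figure D3:**
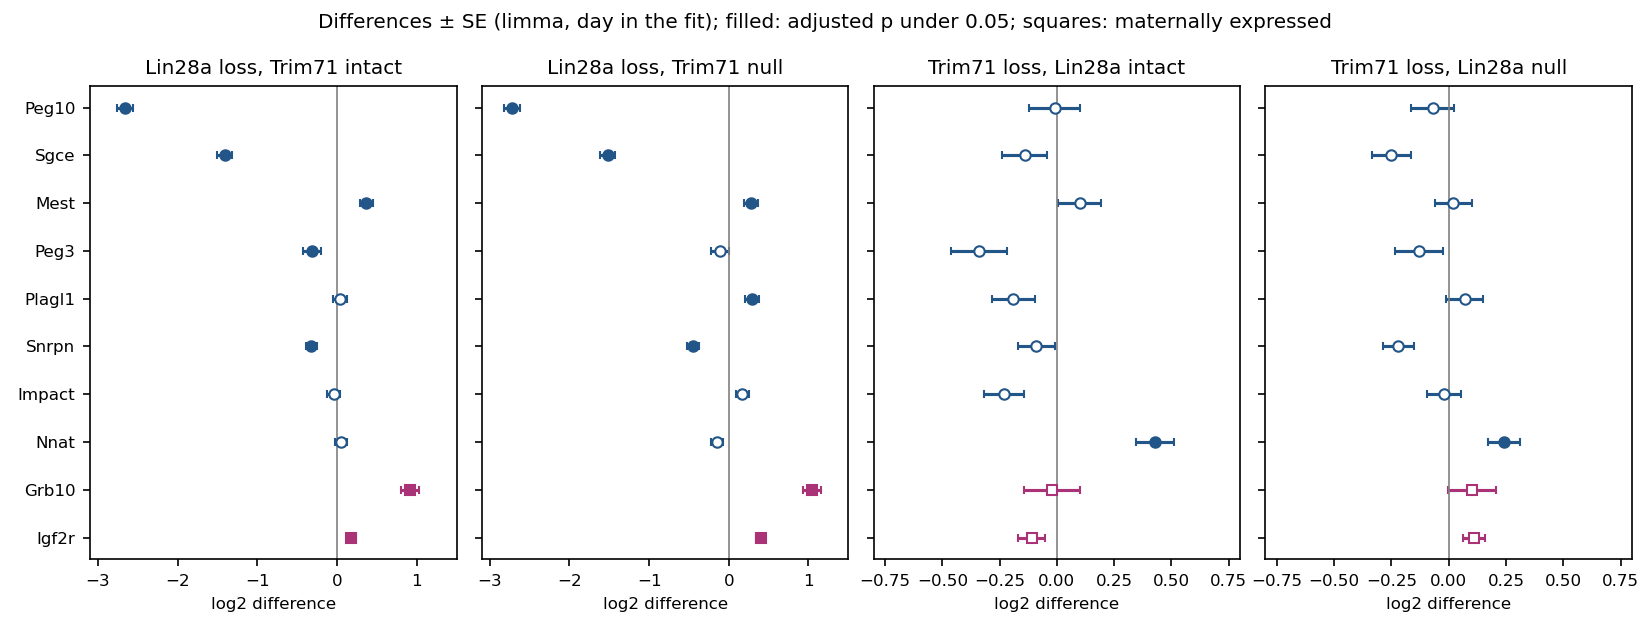
Log2 differences ± SE (horizontal axis) of the 10 genes (vertical axis) under loss of Lin28a and of Trim71, estimated by limma with a term for day. The Lin28a and the Trim71 panels have different ranges. Circles are paternally and squares maternally expressed genes, and filled symbols have an adjusted p under 0.05. In the Trim71 panels Nnat alone was filled.

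Taken by parental class, both maternally expressed genes were called higher in each Lin28a comparison. Of the 8 paternally expressed genes 1 was called higher and 4 lower with Trim71 intact, and 2 higher and 3 lower in Trim71-null cells. The share of all genes called was 20.3% higher and 22% lower in the first comparison and 20.8% and 22% in the second. The median log2 difference was 0.55 and 0.72 for the maternally expressed genes and −0.18 and −0.13 for the paternally expressed genes. With 2 genes in the first class, picked with their values known, no test of the classes was made, and Mest stood with the maternally expressed genes. Called in both comparisons with the same sign were 6 of the 10 genes, 3 higher (Mest, Grb10 and Igf2r) and 3 lower (Peg10, Sgce and Snrpn), against 28.2% of all genes. The 4 genes whose 10 Lin28a-null libraries did not overlap the 8 intact ones were Peg10, Sgce, Grb10 and Igf2r, and 18.8% of all genes were so separated. Within 1 Trim71 state, 6 of the 10 genes had no overlap in each comparison, against 40.8% of all genes with Trim71 intact and 40.7% in Trim71-null cells.

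A wider list of imprinted genes, drawn up from general knowledge and without the H19-Igf2-Kcnq1 and Dlk1-Dio3 domains, is set beside them here. Of 51 listed genes, 31 were tested, and 15 of these were called with Trim71 intact and 15 in Trim71-null cells, or 48.4% each. The shares of all genes called were near that, at 42.4% and 42.8%. Of 13 tested maternally expressed genes 4 were called higher and 3 lower in the first comparison, and 3 higher and 3 lower in the second, with median differences of 0.02 and 0.09. Of 15 paternally expressed genes 1 was called higher and 6 lower, then 3 higher and 6 lower, with medians of −0.11 and −0.12. Of all genes 20.3% were called higher and 22% lower in the first comparison, and 20.8% and 22% in the second. The medians of all genes were −0.01 and 0.00. No test of the classes was made.

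Within or beside the domains of the 10 genes, 19 listed genes were tested. Of these 5 were called in both Lin28a comparisons with the same sign, 4 of them higher. The share of all genes so called, higher and lower together, was 28.2%. Atp10a, a lipid-moving ATPase next to Ube3a in the Snrpn domain, rose by 0.50 ± 0.0997 and 0.58 ± 0.0997 (adjusted p = 0.000848 and 0.000219 in limma), the opposite side to Snrpn. Cobl, an actin-nucleating protein beside Grb10, rose by 0.45 ± 0.066 and 0.58 ± 0.066 (adjusted p = 5.05e-05 and 4.27e-06 in limma), as a neighbour on the same side as Grb10. Peg12, a paternally expressed gene of the Snrpn domain, rose by 0.49 ± 0.091 and 0.30 ± 0.091 (adjusted p = 0.000428 and 0.0136 in limma). Pon2, a lactonase gene near Peg10 and Sgce, fell by 0.40 ± 0.099 and 0.36 ± 0.099 (adjusted p = 0.00385 and 0.00793 in limma), far less than that pair. Ube3a, of the Snrpn domain, and Blcap were not called in either comparison. The ubiquitin ligase gene Ube3a had −0.25 ± 0.138 and 0.09 ± 0.138, and Blcap, whose intron holds Nnat, had 0.12 ± 0.0639 and −0.02 ± 0.0639.

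In domains without any of the 10 genes, 12 were tested and 7 were called in both Lin28a comparisons, all 7 of them lower. Of all genes 28.2% were called in both with the same sign, a share that takes higher and lower genes together. The share of all genes lower in both was not counted. The 7 are counted by gene, and overlap between their transcripts was not examined. No test of the list was made. Peg13, a paternally expressed noncoding RNA, fell by 1.18 ± 0.085 and 1.29 ± 0.085 (adjusted p = 2.67e-08 and 1.02e-08 in limma), the size nearest to that of Sgce. Sfmbt2, a Polycomb-group gene imprinted in extraembryonic tissue, fell by 0.62 ± 0.092 and 0.48 ± 0.092 (adjusted p = 6.23e-05 and 0.000604 in limma). Zrsr1, a splicing factor gene, fell by 0.51 ± 0.0544 and 0.36 ± 0.0544 (adjusted p = 2.02e-06 and 7.82e-05 in limma). The other 4 were Slc38a4, Mcts2, H13 and Commd1, with differences between −0.39 and −0.17.

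**Figure D4:**
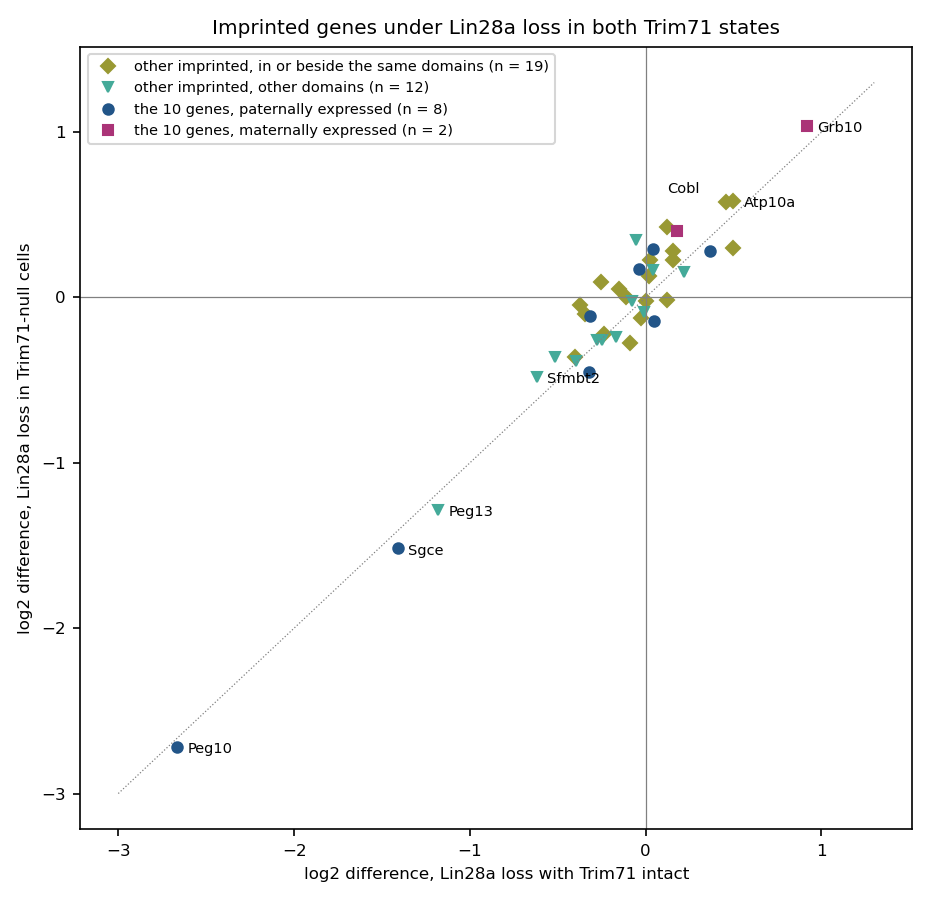
Log2 difference under Lin28a loss with Trim71 intact (horizontal axis) against that in Trim71-null cells (vertical axis) for the 10 genes and the 31 other tested imprinted genes. The dotted line marks equal differences. Peg10, Sgce and Peg13 lay farthest below 0 and Grb10 farthest above.

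Of 18 listed and tested factors that keep or remove imprints, 8 were called in both Lin28a comparisons with the same sign, 5 higher and 3 lower, against 28.2% of all genes. The higher ones were Dppa3, which shields imprints in the fertilized egg, at 0.86 ± 0.122 and 0.67 ± 0.122 (adjusted p = 3.83e-05 and 0.00036 in limma), Tet1, Dnmt1, Uhrf1 and Trim28. Tet1, an enzyme that oxidizes methylcytosine, rose by 0.37 ± 0.116 and 0.71 ± 0.116 (adjusted p = 0.018 and 0.000161 in limma), and Dnmt1 by 0.36 ± 0.0358 and 0.37 ± 0.0358 (adjusted p = 9.67e-07 and 6.67e-07 in limma). The 3 lower ones were the de novo methylation genes. Dnmt3l fell by 0.71 ± 0.0925 and 0.75 ± 0.0925, Dnmt3a by 0.54 ± 0.105 and 0.59 ± 0.105 and Dnmt3b by 0.38 ± 0.101 and 0.52 ± 0.101 (largest adjusted p = 0.00633 in limma). Zfp57 was not called in either, at −0.07 ± 0.0525 and 0.08 ± 0.0525 (adjusted p = 0.286 and 0.211 in limma). Whether these levels bear on the 10 genes was not tested.

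The differences with Trim71 loss were smaller, with a median absolute log2 difference of 0.129 with Lin28a intact and 0.104 in Lin28a-null cells for the 10 genes, and of 0.105 and 0.075 for all genes. In each Trim71 comparison 1 of the 10 was called, Nnat both times, against 11.2% of all genes between KO-WT and WT-WT cells (4.74% higher and 6.43% lower) and 8.38% between KO-KO and WT-KO cells (4.26% higher and 4.12% lower). Called in both with the same sign was 1 of the 10, against 3.19% of all genes. Nnat had 6.52, 6.58, 6.34 and 6.50 in WT-WT cells and 6.94, 6.88, 6.98 and 6.87 in KO-WT cells. In Lin28a-null cells it had 6.57, 6.54, 6.51, 6.41 and 6.63 with Trim71 and 6.69, 6.74, 6.74, 6.97 and 6.71 without it. The groups did not overlap in either Lin28a state, and 28.2% and 12.6% of all genes had no overlap in these comparisons. The differences were 0.43 ± 0.0826 and 0.24 ± 0.0707. Nnat was higher in 3 of 3 and 5 of 5 same-day pairs, which follows from the lack of overlap and adds nothing to it. The 0.24 kept its call in 8 of 31 alternative settings, with values from 0.10 to 0.33, and in 2 of the 18 fits that left out 1 library, those without WT-WT replicate 3 and without KO-WT replicate 3. Blcap, around Nnat on the other strand, differed by 0.15 ± 0.0691 and 0.01 ± 0.0591 and was not called.

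Peg3 and Impact were lower without Trim71 where Lin28a was intact, but not past the threshold. The Peg3 libraries of KO-WT and WT-WT cells overlapped and the difference was −0.34 ± 0.121. Impact differed by −0.23 ± 0.087, with overlap. Both were called when the day term was left out, which brought the count to 3 of 10. In simulated data, scored between WT-KO and WT-WT cells alone, 34.1% of calls were wrong without that term, against 4.33% with it. The Trim71 comparisons were not scored, so these shares are not those of the calls here. Since day effects had been removed from the deposited values, calls made only without the day term are still taken as weak. With the day term, Peg3 was called without WT-KO replicate 3 (−0.34) or KO-WT replicate 4 (−0.43). In Lin28a-null cells Peg3 differed by −0.13 ± 0.103 and Impact by −0.02 ± 0.0745. There the count also rose to 3 without the day term, through Sgce (−0.25 ± 0.0844) and Snrpn (−0.22 ± 0.069), and Snrpn was called without WT-WT replicate 3 (−0.22) or KO-KO replicate 4 (−0.25). In the Peg3 domain the paternally expressed zinc finger genes Zim3 and Zfp264 fell with Trim71 loss by 0.56 ± 0.0986 and 0.60 ± 0.133 in Lin28a-intact cells (adjusted p = 0.00368 and 0.0129 in limma), and Usp29 had −0.32 ± 0.102 (adjusted p = 0.0532 in limma), or −0.15 with the GC and length trend removed. In Lin28a-null cells Usp29 fell by 0.30 ± 0.0872 (adjusted p = 0.0415 in limma), while Zim3 had −0.22 ± 0.0845 and Zfp264 −0.29 ± 0.114 (adjusted p = 0.122 and 0.132 in limma).

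The remaining genes differed less with Trim71 loss. Peg10 had −0.01 ± 0.111 and −0.07 ± 0.0949, Grb10 −0.02 ± 0.123 and 0.10 ± 0.105, and Mest 0.10 ± 0.094 and 0.02 ± 0.0805, with overlap throughout. Plagl1 had −0.19 ± 0.0954 and 0.07 ± 0.0817 and Igf2r −0.11 ± 0.0581 and 0.11 ± 0.0498, and for both the KO-WT libraries lay wholly below the WT-WT libraries. Sgce had −0.14 ± 0.0985 and Snrpn −0.09 ± 0.0805 in Lin28a-intact cells. Of the 31 other imprinted genes 1 was called higher and 6 lower with Lin28a intact, or 22.6%. Of all genes 11.2% were called there, 4.74% higher and 6.43% lower. In Lin28a-null cells 1 was called higher and 4 lower, or 16.1%. Of all genes 8.38% were called there, 4.26% higher and 4.12% lower. No test of the list was made. The first count, 7, dropped to 3 without KO-WT replicate 3 or WT-WT replicate 4 and to 4 without WT-WT replicate 2, KO-WT replicate 2 or KO-WT replicate 4. The second, 5, dropped to 2 without WT-KO replicates 1 or 4 or KO-KO replicate 3, and to 3 without WT-KO replicates 2 or 5 or KO-KO replicates 4 or 5. Without the day term these counts were 11 and 10. Atp10a fell in both (−0.65 ± 0.108 and −0.57 ± 0.0922, adjusted p = 0.00237 and 0.00136 in limma), opposite to its Lin28a difference. Zfp57 rose in Lin28a-null cells by 0.27 ± 0.0486 (adjusted p = 0.00248 in limma). The Trim71 and Lin28a comparisons share libraries, so their values are not independent of each other.

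The KO-WT against WT-WT comparison carried the strongest trend with transcript GC content among the 4 comparisons. Across 14724 genes the difference rose with GC content (Spearman's rho 0.502, a description across genes of the same libraries), while rho was 0.015 between KO-KO and WT-KO cells. In the Lin28a comparisons rho was 0.246 with Trim71 intact and −0.092 in Trim71-null cells, and it was −0.497 for the interaction. Removing each library's GC and length trend moved Peg3 from −0.34 to −0.21, Impact from −0.23 to −0.10, Nnat from 0.43 to 0.32 and Sgce from −0.14 to 0.05. Nnat, the richest in GC of the 10 genes at 58.6%, stayed called. Sgce, the poorest at 38.4%, changed sign, although it was called under neither setting. Of the Lin28a differences with Trim71 intact, Peg10 moved from −2.66 to −2.62, Sgce from −1.41 to −1.29, Snrpn from −0.32 to −0.21 and Impact from −0.04 to 0.08. In Trim71-null cells Peg10 moved from −2.72 to −2.79, Igf2r from 0.40 to 0.29 and Nnat from −0.15 to −0.04, and Impact, at 0.17 in both, became called.

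**Figure D5:**
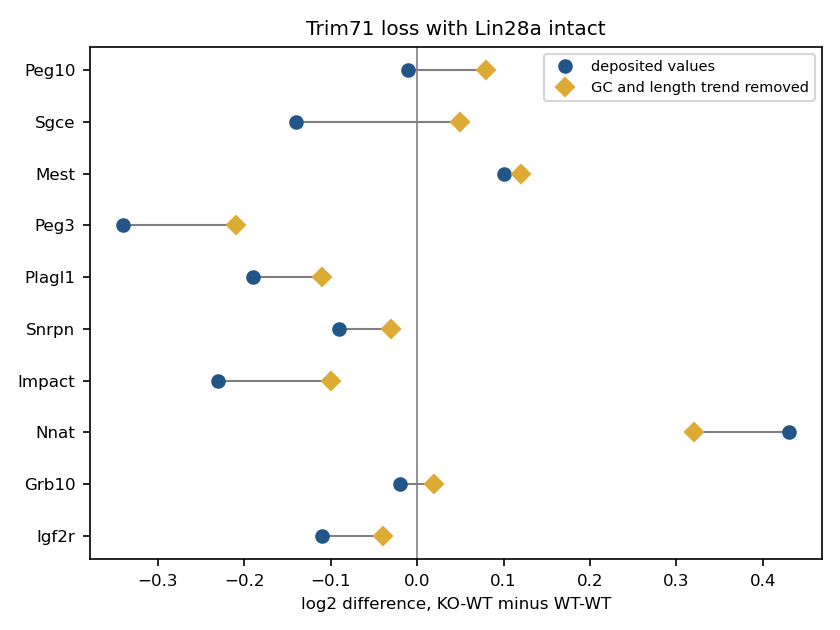
Log2 difference between KO-WT and WT-WT cells (horizontal axis) for the 10 genes (vertical axis), from the deposited values (circles) and after removal of each library's trend with transcript GC content and length (diamonds). Peg3 moved from −0.34 to −0.21 and Nnat from 0.43 to 0.32.

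The genes whose pattern over the 18 libraries was most like that of Peg10, Sgce and Grb10, the 3 with the widest spread of genotype means, were found by the smallest root mean square (RMS) difference of mean-centred log2 values. For Peg10 they were Hand1 (RMS 0.142), a transcription factor on the trophectoderm list, Anxa3 (0.171) and Anxa1 (0.224). For Sgce they were Krt20 (0.103), Slc40a1 (0.135) and Gata3 (0.137), the last a trophectoderm marker as well. For Grb10 they were Gpt2 (0.141), Acacb (0.143) and Aldh18a1 (0.151), genes of amino acid and lipid metabolism. All of these libraries share the same clones, and the likeness is mostly that of the genotype means.

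Genotype and day were then taken out, over 18 libraries with 10 residual degrees of freedom. What was left of the values moved together for some pairs of the 10 genes and in opposite directions for others. Peg3 and Impact, which lie on different chromosomes, had the highest r of all pairs, 0.87, or 0.74 with the GC trend removed. Next came Peg10 and Grb10, which differed in opposite directions without Lin28a, with r = 0.68 and 0.72. The neighbours Peg10 and Sgce had r = 0.28 and 0.13. The lowest r was that of Sgce and Nnat, −0.74, or −0.27 with the GC trend removed. For Sgce and Peg3 that removal moved r from 0.04 to −0.71. These r values are descriptions over libraries that share labelled days and clones.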

How the data were processed

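RNA was sequenced from 19 ES cell cultures (TruSeq v2 libraries, which do not mark strand). The authors deposited 1 table of normalised expression, taken here to be on a log2 scale from its values (−0.71 to 16.3), so the read depth is unknown and its limit on precision cannot be given. On the linear scale the values sum to between 7297919 and 7677445 per library. CASAVA 1.8, STAR and DESeq2 are named in the submitters' processing notes without a role. The genome build, annotation and transformation are not given in the sources used here. The deposited values hold no day effect (largest term 1.7e-08) and were adjusted with genotype kept, so day was fitted with genotype in limma 3.58.1 (R 4.3.3, trend, 10 residual degrees of freedom) on the deposited log2 values of 18 libraries. The day 6 library equalled the mean of its genotype to within 1.5e-08 and was left out. Day numbers in the labels pair the libraries across genotypes. Genes needed log2 of 10 in 4 libraries, p-values were adjusted by Benjamini-Hochberg over 14988 genes, and no p is given for the 10 genes. The model was tested on 5 simulated sets, in each of which 200 genes were moved by 1 log2 unit in the Lin28a-null libraries. Calls were scored between WT-KO and WT-WT cells alone. With the day term the fit found a median of 99.5% of the genes made to change. A median of 4.33% of its calls were wrong, against 34.1% without that term. Smaller differences and Trim71 differences were not simulated, so the share of those that the fit would find is not known. Replicates are cultures of few clones, so p-values measure the spread between these libraries. The 10 genes and all lists were chosen with earlier results of these data known. From each list, the text names up to 3 higher and 3 lower genes called in both Lin28a comparisons, plus Zfp57, Dppa3 and the partners Ube3a, Airn and Blcap. Copg2, Usp29, Zim3, Zfp264 and the Trim71 values of Atp10a were added after their values were seen. Markers were summed as 2 to the power of the value.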

Additional observations from a re-analysis of the deposited data

Results flagged for a closer look

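In 40 groups of 4 or 5 libraries (10 genes in 4 genotypes), 1 library stood apart from the rest of its group. Nnat was 6.97 in KO-KO replicate 4, where the nearest of the other 4 libraries had 6.74. The gap was 0.83 of the whole range of the group. Chance alone sets a library apart in this way in about 1 in 20 groups.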

How the results depend on the processing

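All results were refitted under 31 alternative settings, 18 of which left out 1 library each. Of 1540 refitted differences of the 10 genes, 1518 moved by less than the spread between replicates, 22 moved by more, and no called difference changed sign. Peg10, Sgce and Grb10 kept both Lin28a calls under all 31 settings. Snrpn lost its −0.32 call with clones E3 and C1 alone (−0.23), as did Igf2r its 0.18 call (0.17). Without the day term, that is without the replicate block, 3 of the 10 genes were called in the KO-WT against WT-WT comparison, 3 between KO-KO and WT-KO and 1 for the interaction. In that setting 11 and 10 other imprinted genes were called in the 2 Trim71 comparisons. In simulated data, scored between WT-KO and WT-WT cells alone, 34.1% of the calls of that setting were wrong, against 4.33% with the day term. The same-day pairing changed no other call count by more than 1.5 times, other than for all genes, where the 1674 and 1256 Trim71 calls became 4219 and 2618 and the 3 interaction calls 673. In the KO-WT against WT-WT comparison the 10 genes gave 1 call as fitted, between 1 and 2 with 1 library left out, and 0 with clones E3 and C1 alone, with clones 1 and 1-4 alone or with the 2 genotypes alone. Other imprinted genes there gave 7, between 3 and 9 with 1 library left out, then 0, 2 and 0 in those settings and 2 on the days with all 4 genotypes. Between KO-KO and WT-KO the 10 genes gave 1 call, between 0 and 2 with 1 library left out, and 0 with no filter, with equal 75th percentiles, with equal trimmed means, with either clone set alone, on the days with all 4 genotypes or with the 2 genotypes alone. Other imprinted genes there gave 5, between 2 and 6 with 1 library left out, 1 with each clone set alone, 0 on the days with all 4 genotypes and 2 with the 2 genotypes alone. Between WT-KO and WT-WT the calls fell from 7 to 3 among the 10 genes and from 15 to 8 among other imprinted genes with clones E3 and C1 alone. Between KO-KO and KO-WT clones 1 and 1-4 alone gave 8 other imprinted genes (15 as fitted). Clone subsets have fewer libraries, and apart from that the cause of these moves was not tested. Over all settings the count of all genes called ran from 10 to 4219 and from 153 to 2618 for Trim71, and from 2323 to 7970 and from 2293 to 8090 for Lin28a. The deposited values carry no read counts, so counting error could not be weighed for any gene.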
